A study of Homo sapiens with 6 samples.

Results

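RNH1, FAM3C and AIDA are 3 genes of HepG2 cells, a human hepatoblastoma line with many functions of hepatocytes, whose transcripts differed widely between cells given an siRNA against HNF4A and cells given a control siRNA. They were picked from these data for a large and steady siRNA difference, so that difference is described below and not tested. The members were all 8 probe sets that the platform annotation gives a single symbol of RNH1, FAM3C or AIDA, and the 3 genes stand among 19775 genes so named. HepG2 cells were transfected with an siRNA against HNF4A (siHNF4A) or a control siRNA (siControl), short double-stranded RNAs that lower a matching transcript, and each was followed by TGF-beta at 3 ng/ml for 0, 1.5 or 24 h. The 6 groups were siHNF4A at 0, 1.5 and 24 h and siControl at 0, 1.5 and 24 h, and each is represented by total RNA on 1 Affymetrix array, without replicates. All groups were of the same cell line and all were transfected, and the 0 h groups received no TGF-beta. From the labels it is not known if 1 transfection supplied all 3 arrays of an arm.

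RNH1 encodes the ribonuclease inhibitor, a cytosolic protein built of leucine-rich repeats that binds secreted ribonucleases of the RNase A family, angiogenin among them, very tightly and blocks them. FAM3C encodes ILEI, a small secreted protein known for inducing epithelial-mesenchymal transition; in mouse mammary epithelial cells TGF-beta raises its translation by releasing the RNA-binding protein PCBP1 from its message. AIDA encodes an axin-binding protein first described in zebrafish embryos, where it keeps axin from activating the kinase JNK, and in mouse intestine it promotes the degradation of enzymes of fat synthesis at the endoplasmic reticulum. HNF4A is a nuclear receptor that drives many liver genes.

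The promoters are shown because the AIDA window overlaps that of 1 of 2 annotated starts of a neighbour, BROX, whose values are set beside it below. The sequences are RefSeq windows of GRCh38.p14, from 250 bases before to 50 after an annotated start, matched by symbol for all 3 genes and read 5′ to 3′ on the gene's strand. The AIDA window is chr1:222712442-222712741 on the minus strand, and capitals mark the 172 bases it shares with a BROX window on the plus strand. This BROX start lies 73 bases from the AIDA start, on the opposite strand, and a further BROX start lies 884 bases away with a window that shares 0 bases. In the FAM3C window (chr7:121396259-121396558, minus strand) and in the first listed of the 2 RNH1 windows (chr11:507193-507492, minus strand), capitals mark GC boxes, the letters GGGCGG on either strand.
AIDA: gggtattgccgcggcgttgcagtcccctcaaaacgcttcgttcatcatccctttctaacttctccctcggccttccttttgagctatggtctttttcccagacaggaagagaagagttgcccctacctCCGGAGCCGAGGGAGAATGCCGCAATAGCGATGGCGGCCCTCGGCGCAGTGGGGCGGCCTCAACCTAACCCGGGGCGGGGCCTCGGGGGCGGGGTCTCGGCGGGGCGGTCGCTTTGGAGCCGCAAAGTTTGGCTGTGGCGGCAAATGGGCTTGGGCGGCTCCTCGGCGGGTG
FAM3C: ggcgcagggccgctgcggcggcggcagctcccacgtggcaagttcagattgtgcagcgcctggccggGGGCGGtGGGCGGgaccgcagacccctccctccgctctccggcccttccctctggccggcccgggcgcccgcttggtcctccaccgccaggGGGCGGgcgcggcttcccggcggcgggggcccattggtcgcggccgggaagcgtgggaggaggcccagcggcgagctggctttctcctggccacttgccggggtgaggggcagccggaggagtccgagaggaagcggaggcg
RNH1: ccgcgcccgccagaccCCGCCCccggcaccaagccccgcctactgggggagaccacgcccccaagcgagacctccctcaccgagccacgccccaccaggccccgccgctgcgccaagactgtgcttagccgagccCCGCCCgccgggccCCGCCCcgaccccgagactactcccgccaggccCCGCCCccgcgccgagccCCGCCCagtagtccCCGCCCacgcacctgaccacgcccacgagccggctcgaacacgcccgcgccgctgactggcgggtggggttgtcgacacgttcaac

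None of the 4 windows of the 3 genes held AGGTCA, the core hexamer bound by many nuclear receptors, or CAAAGTC or CAAAGGT, cores of sites bound by HNF4A, on either strand. Among all 35116 promoter windows 13.8% held AGGTCA, 3.38% held CAAAGTC and 3.37% held CAAAGGT. The absence says only that these letters are not in these windows. Of 23 windows of 18 genes held as textbook HNF4A targets, 8 held AGGTCA, 3 held CAAAGTC and 4 held CAAAGGT. GC boxes, looked for after the sequences were seen, numbered 5 in the AIDA window, 3 in the FAM3C window and 6 and 3 in the RNH1 windows, and 45.0% of all windows held at least 1. GC content was 64.3% for AIDA, 77.3% for FAM3C and 77.3% and 73.3% for RNH1, against a median of 58.7% over all windows.

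Values are MAS5 signals, linear intensities that combine the probe pairs of a probe set, with a trimmed mean of 100 averaged over the arrays as deposited. Signals at or below 12.9, the median of all signals, were set to that floor before log2 was taken, and 11921 genes with a mean signal above it were tested. All 10 HepG2 markers listed, albumin and alpha-fetoprotein among them, lay above the floor on all 6 arrays (491.8 to 10763). For the siRNA the fibrinogen chain FGB rose by 0.74, transthyretin (TTR) fell by 0.52 and 8 did not pass in limma. At 24 h with TGF-beta 1 rose (SERPINA1, 0.34), 2 fell and 7 did not pass. Among all genes tested 8.06% passed for the siRNA and 15% at 24 h. The rise of SERPINA1 was lost when the siControl 0 h array was left out. Of 9 measured markers of blood, endothelial and fibroblast cells, 4 lay at or below the floor on all arrays and 1, PECAM1, lay above it on all (57.5 to 98.0 in siHNF4A, 47.0 to 127.2 in siControl). None of the 3 of them tested passed for the siRNA, and at 24 h PECAM1 rose by 1.01 (limma adjusted p = 0.0222), a call lost without the siControl 0 h array. Their summed signal was 107.7 to 197.0 in siHNF4A and 116.7 to 238.9 in siControl, and the part of such signal in the values of RNH1, FAM3C and AIDA was not tested. The siControl 0 h array stood apart in 1 control probe set for ribosomal RNA, which read 8600 there and 69.8 to 736.5 on the other 5 arrays. Leaving it out leaves 1 array at 0 h, which its time term fits exactly, and 1 residual degree of freedom. The error is then estimated anew. Calls lost or gained without this array, here and below, can therefore not be laid to the array alone. The level of HNF4A was not analysed here, so the labels were not checked against it. Since every array came from transfected cells, a gene higher in siHNF4A cannot be told apart from a gene lowered by the control siRNA.

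RNH1 was the gene of the 3 that was lower with siHNF4A. Its probe set 206050_s_at read 102.6, 113.1 and 150.8 at 0, 1.5 and 24 h in siHNF4A, against 466.5, 537.2 and 450.3 in siControl. The arms did not overlap, and within siHNF4A the 24 h array was the highest. From the earliest to the latest time the log2 differences were -2.18, -2.25 and -1.58, with a mean of -2.004 ± 0.37 (SD over 3 times). In bulk RNA, fewer cells that express a gene and less of its RNA per cell cannot be told apart. Averaged so, the signal in siHNF4A was 0.249 of that in siControl. The suffix _s_at marks a probe set whose probes match more than 1 transcript, often of the same gene.

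The other RNH1 probe sets lay near or below the floor and carried little of this. Probe set 1555529_at read 20.5, 5.6 and 14.1 in siHNF4A and 18.4, 13.9 and 17.2 in siControl, so the arms overlapped. Probe set 216798_at read 1.9, 0.6 and 2.4 in siHNF4A and 10.1, 13.2 and 7.5 in siControl, above the floor on 1 array only. Its arms did not overlap and siHNF4A was the lower, but the floor removes nearly all of this difference. The RNH1 difference therefore rests on 1 of its 3 probe sets, and 1555529_at gave a mean log2 difference of -0.08.

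FAM3C was higher with siHNF4A by almost the same factor at each time. Probe set 201889_at read 568.0, 527.7 and 418.0 at 0, 1.5 and 24 h in siHNF4A, against 157.2, 149.3 and 119.6 in siControl. The ratio of siHNF4A to siControl was 3.61, 3.53 and 3.495, a mean log2 difference of 1.83 ± 0.02 (SD over 3 times). The arms did not overlap, and both were lowest at 24 h. Probe sets 236316_at (1.8 to 6.5 in siHNF4A, 0.3 to 6.0 in siControl) and 240062_at (4.1 to 10.9 in siHNF4A, 5.9 to 11.7 in siControl) lay below the floor on all 6 arrays and gave no difference.

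AIDA was higher with siHNF4A in both of its probe sets. Probe set 226801_s_at read 1278, 1301 and 1314 at 0, 1.5 and 24 h in siHNF4A, against 330.1, 304.4 and 537.9 in siControl. Probe set 220199_s_at read 607.5, 654.7 and 601.3 in siHNF4A, against 167.4, 180.4 and 298.8 in siControl. In both probe sets the siHNF4A arrays differed little among themselves, and the siControl array at 24 h was the highest of its arm. The log2 differences were 1.95, 2.10 and 1.29 for 226801_s_at (mean 1.78 ± 0.43, SD over 3 times) and 1.86, 1.86 and 1.01 for 220199_s_at (mean 1.58 ± 0.49).

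**Figure D1:**
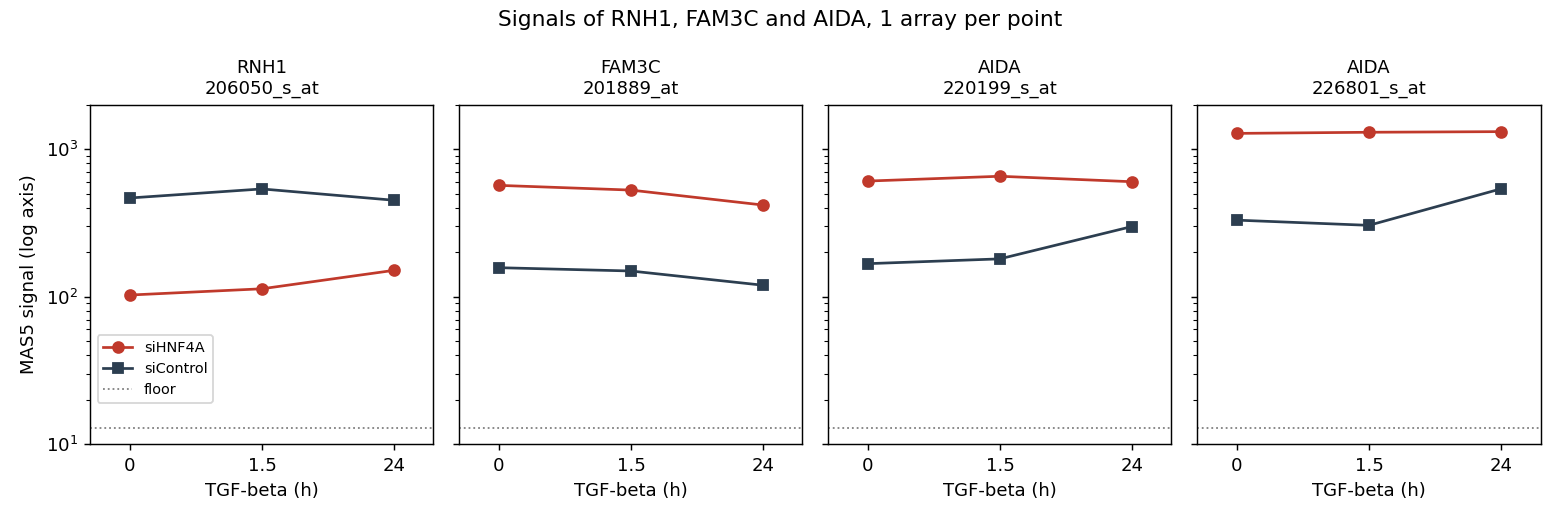
MAS5 signal (log axis) of the 4 probe sets of RNH1, FAM3C and AIDA that lay above the floor on all 6 arrays, by hours of TGF-beta; red circles are siHNF4A and dark squares siControl arrays, 1 array per point, and the dotted line is the floor of 12.9. The arms do not overlap in any panel, and the gap narrows at 24 h for RNH1 (siHNF4A up to 150.8) and for AIDA (siControl up to 298.8 and 537.9) but not for FAM3C.

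All 3 siHNF4A arrays lay above all 3 siControl arrays in 7.12% of the genes tested and below them in 10.3%, which is the background for this separation of arms. The rule used this contrast, so nothing is read from the members' part in it. Ordered by mean siRNA difference, RNH1 was the fifth lowest of the 11921 genes, and FAM3C and AIDA were the seventh and eighth highest. Steadiness differed among the 3. The differences of FAM3C spanned 0.05 on the log2 scale between times, a span that only 0.881% of genes tested undercut. Those of RNH1 spanned 0.67 and those of AIDA 0.81, wider than in 68.9% and 77.8% of genes. The median span was 0.47 over all genes tested, dim genes at the floor included, and 0.77 over the 15 genes described next. The sign was the same at all times for each of the 3 genes.

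All 6 signals were above the floor for 10463 genes, and 15 of these had a mean siRNA difference at least as large as that of AIDA, 8 of them higher in siHNF4A and 7 lower. Of these 15, 9 had a span no wider than that of AIDA: 5 higher and 4 lower in siHNF4A. Beside FAM3C and AIDA the higher ones were TULP3 (mean log2 difference 1.96), a tubby-like protein of the primary cilium, C21orf91 (1.94) and PHTF2 (1.91). Beside RNH1 the lower ones were CYP19A1 (-1.99), which encodes aromatase, the enzyme that makes oestrogens, GPR157 (-1.98), an orphan receptor, and AP1S2 (-1.79), a subunit of a clathrin adaptor. FAM3C had the narrowest span of the 15, but steadiness was part of the choice, so nothing is read from this place.

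**Figure D2:**
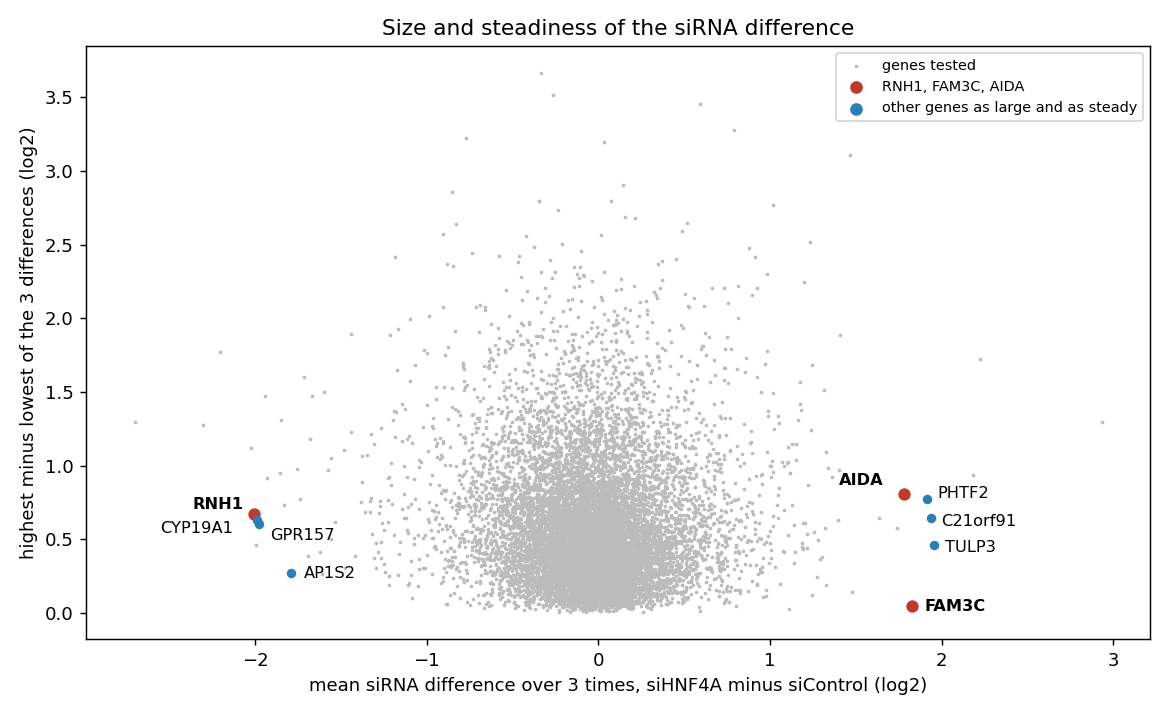
Mean log2 siRNA difference over 3 times (siHNF4A minus siControl, horizontal) against the highest minus the lowest of the 3 differences (log2, vertical) for the 11921 genes tested, 1 point per gene. RNH1, FAM3C and AIDA (red) lie at -2.004, 1.83 and 1.78. Blue points are the other genes above the floor on all arrays with a mean difference at least as large as AIDA's, in either direction, and a span no wider than AIDA's.

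The TGF-beta contrast averaged over both arms was not used to pick the genes, but their steadiness enters the error of its test. This contrast was tested in limma, with siRNA and time as terms and Benjamini-Hochberg adjustment over all 11921 genes. No difference of the 3 genes passed at 24 h, where 15% of genes tested did (7.22% higher and 7.82% lower), or at 1.5 h, where 0.101% did (0.0839% higher and 0.0168% lower). At 24 h FAM3C was -0.42 ± 0.16 on the log2 scale (SE, 2 arrays at each time; limma adjusted p = 0.103), AIDA was 0.37 ± 0.17 (0.172) and RNH1 was 0.25 ± 0.19 (0.435). Before adjustment 2 of the 3 were under 0.05 in limma, FAM3C and AIDA, as were 27.8% of all genes tested. At 1.5 h RNH1 was 0.17 ± 0.19, FAM3C -0.09 ± 0.16 and AIDA -0.05 ± 0.17, with a limma adjusted p of 1 for each and none under 0.05 before adjustment, where 3.05% of all genes tested were. The error in these tests joins a gene's own disagreement between the siRNA arms (2 residual degrees of freedom) with limma's spread over all genes (a median of 12.65 prior degrees of freedom). Steadiness over time was part of the choice of the genes and is the lack of such disagreement. Their p-values are therefore not free of the choice and can be too low, above all for FAM3C with its narrow span. Also, 24 h of TGF-beta cannot be told apart from 24 h of culture.

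Taken by arm, the 24 h values varied from gene to gene. FAM3C was lower at 24 h than at 0 h in both, with a log2 difference of -0.44 in siHNF4A and -0.39 in siControl. AIDA had 0.04 in siHNF4A and 0.70 in siControl by 226801_s_at, and -0.01 and 0.84 by 220199_s_at, so its signal in siControl was 1.63 and 1.785 times that at 0 h. RNH1 had 0.56 in siHNF4A, a ratio of 1.47, and -0.05 in siControl. The difference between arms was -0.66 for AIDA, -0.05 for FAM3C and 0.61 for RNH1. It was not tested, since steadiness over time was part of the choice; 15% of genes tested had a larger one than AIDA in either direction, and 17.9% than RNH1.

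**Figure D3:**
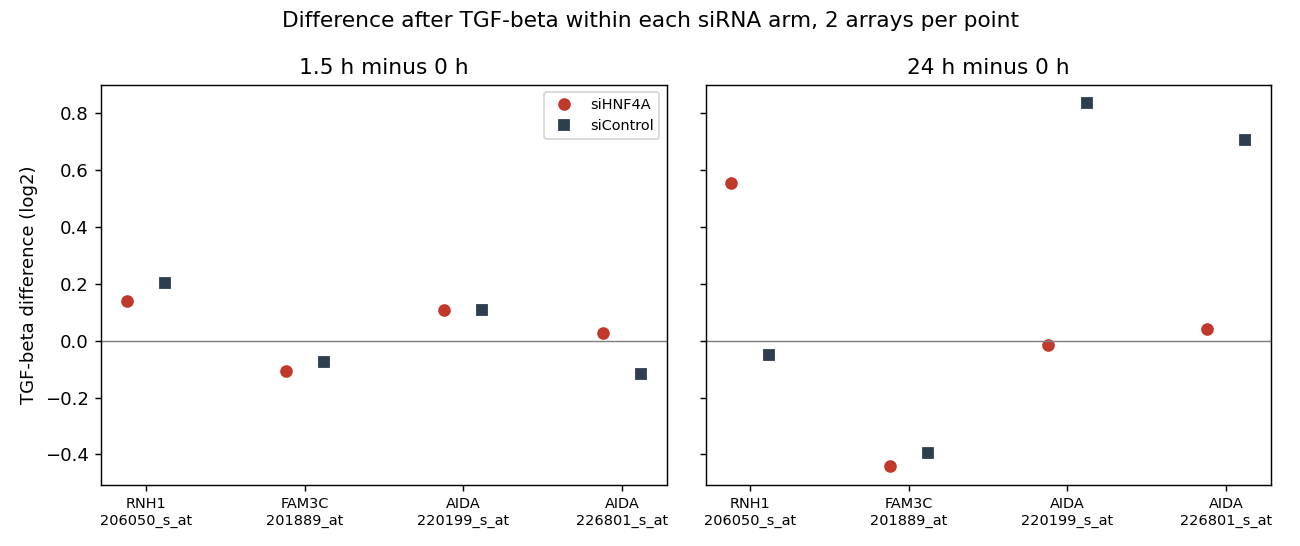
Log2 difference from 0 h after 1.5 h (left) and 24 h (right) with TGF-beta, for the 4 probe sets above the floor on all arrays; red circles are siHNF4A and dark squares siControl, each from 2 arrays. At 24 h both FAM3C points lie near -0.4, AIDA is near 0 in siHNF4A and at 0.84 and 0.70 in siControl, and RNH1 is at 0.56 in siHNF4A and -0.05 in siControl.

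The chromosomal neighbours of the 3 genes were set beside them. Among 18 protein-coding neighbours, 3 on each side in the RefSeq gene table of GRCh38.p14, 15 were tested, and their mean siRNA differences ran from -0.52 to 0.57 on the log2 scale with a median near 0. None passed in limma over all genes, where 8.06% did (3.9% higher and 4.16% lower in siHNF4A), and 1, the phosphatidylserine synthase PTDSS2 next to RNH1 (0.57 ± 0.23, SE; limma adjusted p = 0.165), was under 0.05 unadjusted, as were 21.4% of all genes tested. BROX encodes an ESCRT-associated protein, and which of its starts supplied the signal was not tested. BROX read 350.2, 343.2 and 340.3 in siHNF4A, against 362.5, 367.0 and 361.4 in siControl. The BROX arms were separate but close, with a log2 difference of -0.08 ± 0.12 (limma adjusted p = 0.787). HRAS, a small GTPase near RNH1, had 142.6 to 187.7 in siHNF4A and 122.5 to 227.3 in siControl. CPED1, near FAM3C, had 174.2 to 240.9 in siHNF4A and 170.6 to 247.8 in siControl, and both arms were lowest at 24 h, as FAM3C was.

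**Figure D4:**
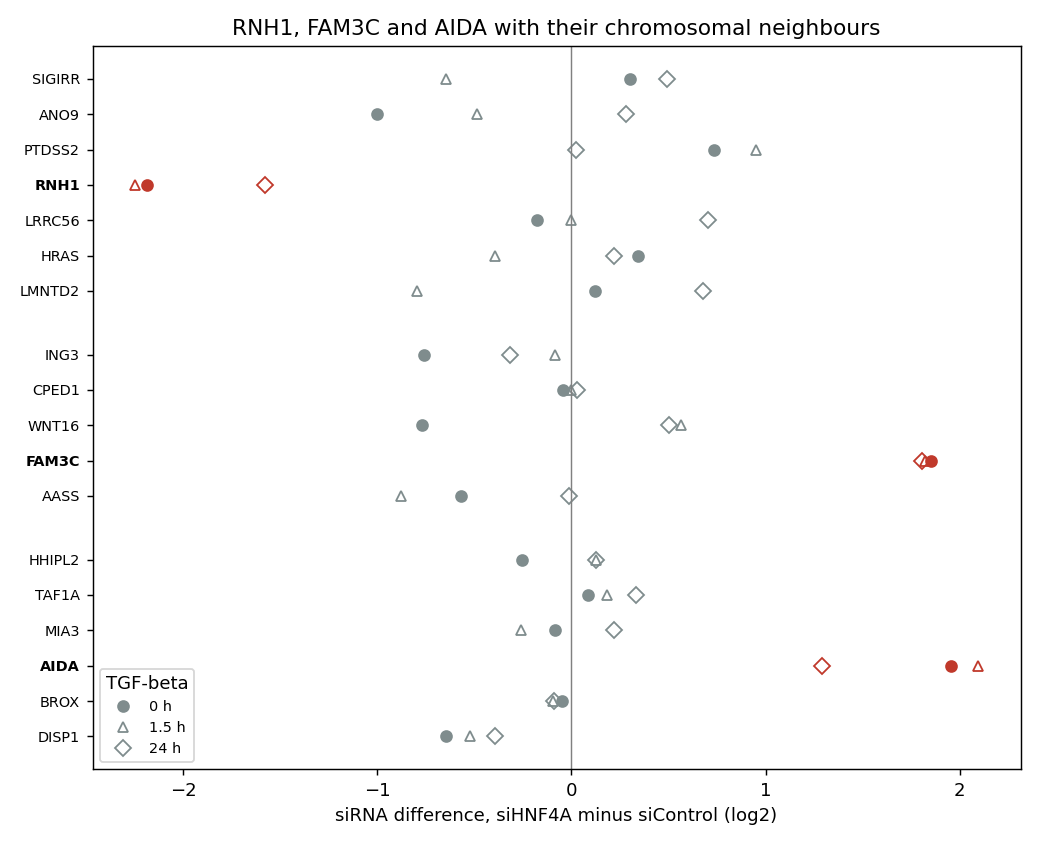
Log2 siRNA difference (siHNF4A minus siControl) at 0 h (filled circles), 1.5 h (open triangles) and 24 h (open diamonds) for RNH1, FAM3C and AIDA (red) and their tested neighbours in chromosomal order (grey). The neighbours' points lie between -1.0 and 1.0, and those of BROX, beside AIDA, lie close to 0 at each time.

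Likeness of pattern was measured by Pearson's r of log2 signal over the 6 arrays, as a description of points that share arrays and siRNA arms. The 5 genes most like RNH1 were MCRIP1, SLC39A9, PEX16, MOGAT3 and DNAJC22, with r of 0.987 to 0.994 but mean siRNA differences of only -0.29 to -1.05. The 5 most like FAM3C were TM7SF3, ZBTB5, SUZ12, FAM98A and HES2 (r 0.990 to 0.994), with siRNA differences of 0.26 to 1.27. HES2, with signals of 1.7 to 26.4, lay in part below the floor, which sets part of its r and difference. The 5 most like AIDA were PTPRK, AMMECR1, UBE2G1, PHTF2 and VKORC1 (r 0.994 to 0.999). AMMECR1, with signals of 27.1 to 191.7, had a mean siRNA difference of 2.18, and PHTF2 had 1.91. Between the members, r was 0.907 for FAM3C and AIDA, -0.983 for FAM3C and RNH1 and -0.959 for AIDA and RNH1. The large siRNA differences for which these genes were picked set much of each r, so nothing is read from these values.

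Of the RNase A family that RNH1 binds, the measured ribonucleases were mostly dim, and the level of those without a probe set is not known. Of 14 listed genes of the RNase A family with the angiogenin receptor PLXNB2, 7 had a probe set and 3 were tested. Angiogenin (ANG) read 493.0, 547.3 and 464.8 in siHNF4A and 527.0, 487.0 and 575.3 in siControl, so the arms overlapped. Its siRNA difference was -0.08 ± 0.12 on the log2 scale. PLXNB2 had 0.39 ± 0.15 (limma adjusted p = 0.149, unadjusted under 0.05). None of the 3 passed for the siRNA, where 8.06% of all genes tested did. The median siRNA difference was 0.06, against -0.04 over all genes tested.

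A list joined the FAM3 family, partners of ILEI and genes of epithelial-mesenchymal transition such as the cadherins, VIM and FN1. Of its 18 genes 15 were tested. For the siRNA 2 fell, none rose and 13 did not pass, with a median of -0.17. Among all genes tested 4.16% fell and 3.9% rose. DAB2, an endocytic adaptor whose message PCBP1 also binds, fell by 0.57 ± 0.16 (limma adjusted p = 0.0414), and the epithelial cadherin CDH1 fell by 0.54 ± 0.14 (0.0266). Without the siControl 0 h array DAB2 (-0.64) and CDH1 (-0.52) did not pass and 1 gene of the list, FAM3A, fell. The members of the list farthest apart without a call were the intermediate filament gene VIM (16.3 to 27.4 in siHNF4A, 5.5 to 14.6 in siControl), in part below the floor, and PLAUR (-0.70 ± 0.21, limma adjusted p = 0.0567). PCBP1 itself read 2057 to 2670.5 in siHNF4A and 2068 to 2495 in siControl.

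At 24 h with TGF-beta 5 of the 15 rose, 1 fell and 9 did not pass, with a median of 0.30 against -0.03 over all genes. Among all genes tested 7.22% rose and 7.82% fell there. CDH1 (1.85 ± 0.17), the urokinase PLAU (1.77 ± 0.33), its receptor PLAUR (1.03 ± 0.26), the cadherin CDH2 (0.89 ± 0.14) and fibronectin FN1 (0.30 ± 0.09) rose. FAM3B, a relative of FAM3C also known as a pancreatic secreted factor, fell by 0.90 ± 0.20, with 97.1 at 24 h against 177.0 at 0 h in siHNF4A and 118.5 against 225.4 in siControl. Without the siControl 0 h array FAM3B (-0.77, limma adjusted p = 0.079) and FN1 (0.34, 0.107) did not pass, and ZEB1, a repressor of epithelial genes, rose. FAM3A (20.9 to 38.1 in siHNF4A, 27.8 to 67.2 in siControl) did not pass in either contrast. LIFR, a receptor of ILEI, had an siRNA difference of -0.63 ± 0.20 (limma adjusted p = 0.0648).

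Of 13 listed genes of axin and JNK signalling 12 were tested. For the siRNA 1 fell and 11 did not pass, with a median near 0. Among all genes tested 8.06% passed for the siRNA, so 1 of 12 is near that share. The kinase MAP3K4 fell by 0.59 ± 0.14 (limma adjusted p = 0.0188), with 224.2, 274.3 and 210.3 in siHNF4A against 338.0, 496.8 and 262.1 in siControl. The JNK gene MAPK8 read 217.8 to 286.9 in siHNF4A and 173.9 to 182.7 in siControl (0.50 ± 0.15, 0.0515). It rose without the siControl 0 h array, which made the count 1 higher and 1 lower. AXIN1, the partner in AIDA's name, was dim (9.1 to 39.5 in siHNF4A, 26.6 to 34.8 in siControl). Among all genes tested 15% passed at 24 h with TGF-beta, and 27.8% were under 0.05 unadjusted. None of the 12 passed at 24 h with TGF-beta, with 2 under 0.05 unadjusted, and AXIN1 fell there without the siControl 0 h array.

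Of 10 genes of degradation at the endoplasmic reticulum and of the lipid enzymes that AIDA is known to act on, 9 were tested. For the siRNA 1 rose, 1 fell and 7 did not pass (median 0.03), where 8.06% of all genes tested passed. The stress-induced HERPUD1 rose by 0.48 ± 0.10, and DGAT2, which makes triglycerides, fell by 0.54 ± 0.13. The largest difference was that of the acyltransferase MOGAT2 (-0.78 ± 0.27, limma adjusted p = 0.0904), with 26.7 to 38.3 in siHNF4A and 38.5 to 77.1 in siControl. The glycerol-phosphate acyltransferase GPAT3 read 105.4 to 174.7 in siHNF4A and 60.2 to 120.8 in siControl (0.57 ± 0.19, limma adjusted p = 0.0847), and it passed without the siControl 0 h array. At 24 h with TGF-beta HERPUD1 rose by 0.41 ± 0.12, DGAT2 fell by 0.60 ± 0.16 and 7 did not pass. Of all genes tested 15% passed there. HERPUD1 (0.43) did not pass at 24 h without the siControl 0 h array.

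Textbook targets of HNF4A were described on the same scale. Of 28 listed 20 were tested, 6 fell, 1 rose and 13 did not pass, with a median of -0.28. Among all genes tested 4.16% fell and 3.9% rose for the siRNA. The lowest difference was that of the lipid droplet gene CIDEC, with 56.7, 56.0 and 44.7 in siHNF4A against 179.1, 184.7 and 122.5 in siControl (-1.61 ± 0.18). The apolipoprotein APOC3 (-0.89 ± 0.14) and the clotting factor F7 (-0.87 ± 0.19) also fell. So did the pyruvate kinase PKLR, with 17.9, 6.5 and 14.1 in siHNF4A against 37.6, 51.6 and 25.5 in siControl, where 1 siHNF4A value lay below the floor and so the difference of -1.31 ± 0.29 is set in part by it. HAMP, which encodes the iron hormone hepcidin, rose by 0.46 ± 0.11. Leaving out the siControl 0 h array made this 5 lower and 0 higher, without F7 and HAMP among them. Whether RNH1, FAM3C and AIDA moved through HNF4A, or through other transcripts that either siRNA matched, was not tested. The design holds 1 siRNA label per arm, with which these cannot be told apart, and the siRNA sequences were not used here.

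**Figure D5:**
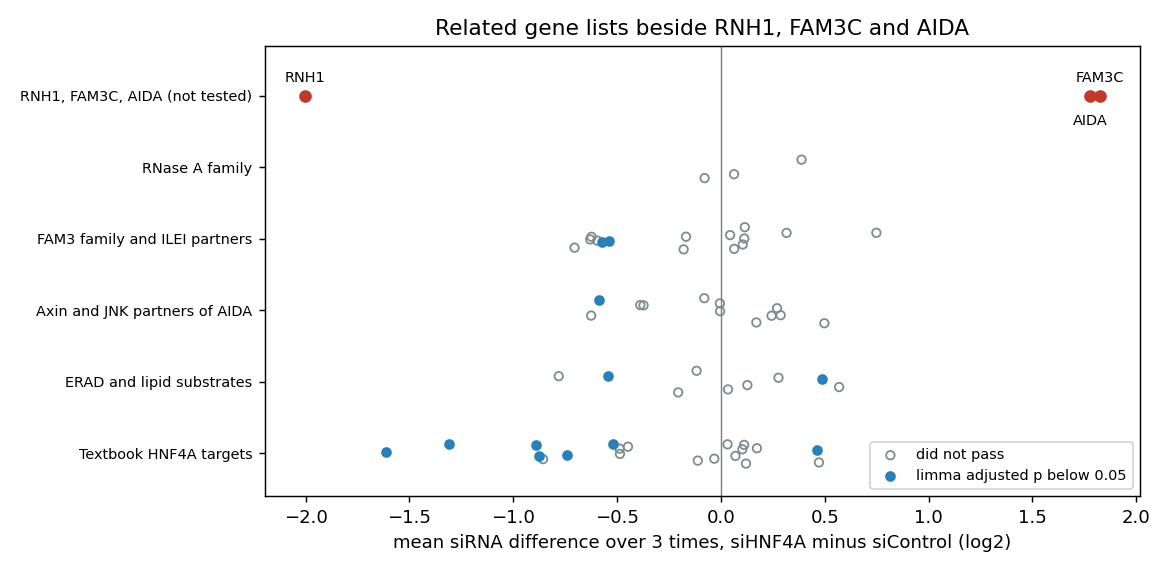
Mean log2 siRNA difference over 3 times (siHNF4A minus siControl) for RNH1, FAM3C and AIDA (red, not tested) and for the tested genes of 5 lists, 1 point per gene with vertical jitter; filled blue points had a limma adjusted p below 0.05 over all genes. RNH1, FAM3C and AIDA, chosen for this difference, lie at -2.004, 1.83 and 1.78, and the points of the lists run from -1.61 (CIDEC) to 0.75 (VIM).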

How the data were processed

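Deposited values were MAS5 intensity signals on a linear scale, made by the authors with MAS5 5.0 and GCOS, per the submitters' processing notes. The trimmed mean (2% at each end) over 54675 probe sets was 100 when averaged over the arrays, and each of the 6 arrays was 1 sample. No detection call or probe-level file was used. The 62 control probe sets served as a check of the arrays and entered no fit. Names came from the platform annotation, with symbols updated through Entrez identifiers. A gene was read from its probe set with the highest mean signal. Signals were set to at least 12.9, log2 was taken, and 11921 genes with a mean above that were fitted in limma 3.58.1 (R 4.3.3) with siRNA and time as terms, eBayes with an intensity trend, Benjamini-Hochberg adjustment and a threshold of 0.05. The fit had 2 residual and a median of 12.65 prior degrees of freedom. Without replicates, p-values measure only the disagreement between times or arms. This fit was checked on simulated data.

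The members, the gene lists and the rules for naming genes were chosen with earlier results of these data known. The genes named were the members, their neighbours and the 5 genes most like each by Pearson's r. Also named were genes with a difference at least as large as AIDA's and a span no wider, and the list members with the largest differences. PCBP1, LIFR, AXIN1, FAM3A, ANG and the genes lost or gained without an array were named after their values were seen. Alternatives tried were quantile normalization, median scaling, floors at percentiles 40 and 60, a pseudocount, probe sets averaged per gene, no _x_at or _s_at probe sets, every probe set as a feature, no filter, no trend, and leaving out arrays. Tables and figures used Python 3.11.15, numpy 2.4.6, pandas 2.3.3 and matplotlib 3.10.9.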

Additional observations from a re-analysis of the deposited data

Results flagged for a closer look

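The RNH1 difference after 24 h of TGF-beta had opposite signs in the arms, 0.56 in siHNF4A and -0.05 in siControl, a difference between arms of 0.61 on the log2 scale that was not tested. For AIDA (226801_s_at) the same held at 1.5 h, with 0.03 in siHNF4A and -0.12 in siControl, a difference of 0.14 that was not tested, and probe set 220199_s_at had 0.11 in both arms. Each value rests on single arrays.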

How the results depend on the processing

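The siRNA differences kept their sign for RNH1, FAM3C and AIDA under each alternative that gave a value. Leaving out the siControl 0 h array gave -1.91, 1.81 and 1.69, the same values as leaving out the 0 h pair. Leaving out each pair of arrays gave -2.22 to -1.88 for RNH1, 1.81 to 1.84 for FAM3C and 1.62 to 2.02 for AIDA. With probe sets averaged per gene RNH1 had -0.70 and FAM3C 0.61, since their other probe sets lie near the floor. Without _x_at and _s_at probe sets RNH1 had -0.0795, read from 1555529_at, and AIDA had no value. A pseudocount equal to the floor gave 1.74 for FAM3C. No TGF-beta difference of the 3 genes passed under any alternative. RNH1 changed sign with the mean of probe sets (-0.022 at 24 h, -0.12 at 1.5 h) and without _x_at and _s_at probe sets (-0.32 and -0.54), and AIDA at 1.5 h had 0.031 with the mean of probe sets. Counts of genes called moved more. The 961 for the siRNA were 943, 578 and 242 without the 0, 1.5 and 24 h pair of arrays. The same count was 227 with the mean of probe sets, 1508 with every probe set, 45 without the trend and 0 without the filter. Without the filter 2116 were at an unadjusted p under 0.05 in limma. The 1793 at 24 h were 806 with the mean of probe sets, 2772 with every probe set, 457 without the trend and 1 without the filter. The 12 at 1.5 h were 0 with the mean of probe sets, without the trend and without the filter (356, 487 and 571 unadjusted), 7 without _x_at and _s_at probe sets and 26 without the siControl 0 h array. The cause was not tested. Calls of single genes in the lists were followed only for leaving out the siControl 0 h array. With a count of 0, the fit without the filter held none of the siRNA calls given for the lists. Time was a term in each fit, so the arms were set against each other within times. Beyond this, no paired analysis was possible because the labels carry no replicate numbers, and 6 arrays set the precision.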
